A study of Drosophila melanogaster with 16 samples.

Results

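The maltase genes of Drosophila melanogaster, Mal-A1 to Mal-A8, Mal-B1 and Mal-B2, were taken by symbol from the deposited table, which held 10 of them among 9982 genes. Values are normalized CPM, read counts scaled by the authors to library size and between libraries. All 10 passed the filter on low values (over 1 normalized CPM in 3 or more of a group's 4 libraries) and were tested among 9950 genes. Maltases are alpha-glucosidases. They are secreted or membrane-bound enzymes that cut maltose, sucrose and related sugars into single sugars, which the gut then takes up. In flies the midgut makes many digestive carbohydrases, and several of them, amylase among them, are known to be made in smaller amounts when the food is rich in sugar.

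RNA-seq was carried out on pools of 20 whole larvae, in 16 libraries, 4 in each group. In the libraries labelled grn, the ubiquitous driver Tub-GAL4 was combined with an RNAi transgene against grain (grn), which encodes a GATA transcription factor, and in the control libraries with a TRiP control transgene. Larvae of each genotype spent 8 h on a high sugar diet (HSD, 10% yeast with 15% sucrose) or stayed on a low sugar diet (LSD, 10% yeast and no added sugar). The groups were therefore grn-labelled on HSD, control on HSD, grn-labelled on LSD and control on LSD, and all 4 carried the driver. The grn-labelled larvae came from 1 RNAi line with no cell-type restriction. Groups follow the sample titles, because the labels' own genotype entries disagree with them (LSD samples are entered as wild type, HSD samples as erk7 mutant). The study's methods describe larvae in the early second instar when moved to the diets, and the labels enter a later instar.

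Reads mapped to the listed genes numbered 24310235 to 32644817 per library in grn-labelled libraries and 24038848 to 27605460 in control libraries. The check of the targeted gene went against its label. On HSD, grn averaged 219 ± 10.2 normalized CPM in grn-labelled libraries and 20.5 ± 2.66 in control libraries, and on LSD 239 ± 14.7 in grn-labelled and 18.1 ± 2.63 in control libraries (SD, n = 4 libraries each). The paper reports, from a separate measurement of relative expression, that its RNAi lines lowered grn. Whether the grn reads in these libraries come from the transgene was not tested. No label says that the 4 libraries of a group are from separate crosses, so that p-values measure the spread between these pools. Replicate libraries differed from each other by more than counting error in every group.

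Mal-A1 to Mal-A8 form a cluster of 24298 bp on chromosome 2R, from 8449664 to 8473961 (Release 6 of the genome, Ensembl annotation), and Mal-B1 and Mal-B2 lie together on chromosome 2L from 11847226 to 11852881. In the cluster on 2R the genes follow each other in numerical order, with Mal-A1, Mal-A3 and Mal-A7 on the minus strand and the other 5 on the plus strand. Mal-A1 and Mal-A2, Mal-A3 and Mal-A4, and Mal-A7 and Mal-A8 are transcribed away from each other, with 1722, 922 and 290 bp between the genes of each pair. Mal-A5 and Mal-A6 run in the same direction with 65 bp between them. Mal-B1 and Mal-B2 run in the same direction with 788 bp between them, inside Pde1c, which is on the opposite strand. The exons of Mal-A1 share 82 bases with Cyp4e1 and those of Mal-A8 share 6 bases with mtt, in both cases on the opposite strand, and the authors counted reads by strand. Reads that match more than 1 maltase gene could have been dropped or split by the aligner, and how far the paralogs share sequence was not analysed here.

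The summed maltase level was lower in grn-labelled than in control larvae on both diets. Of the 10 genes, 7 were called lower on HSD, beside 21.2% of all genes tested, and 8 on LSD, beside 27.1%. Summed over the 10 genes, grn-labelled libraries on HSD held 927 to 1118 normalized CPM (982 ± 90.9), against 1601 to 1840 in control libraries on HSD (1702 ± 104). On LSD the sum was 391 to 445 in grn-labelled libraries (418 ± 22.3), against 1285 to 1462 in control libraries (1416 ± 87.6, SD, n = 4 each). The 4 groups did not overlap in this sum. The lowest level was that of grn-labelled larvae on LSD, at 0.295 of the control level, and on HSD the grn-labelled libraries stood at 0.577 of control. With plain CPM of the reads recovered from the signal, these ratios were 0.340 on LSD and 0.637 on HSD. The sum was 2.35 times as high on HSD as on LSD in grn-labelled larvae, and 1.20 times in control larvae.

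**Figure D1:**
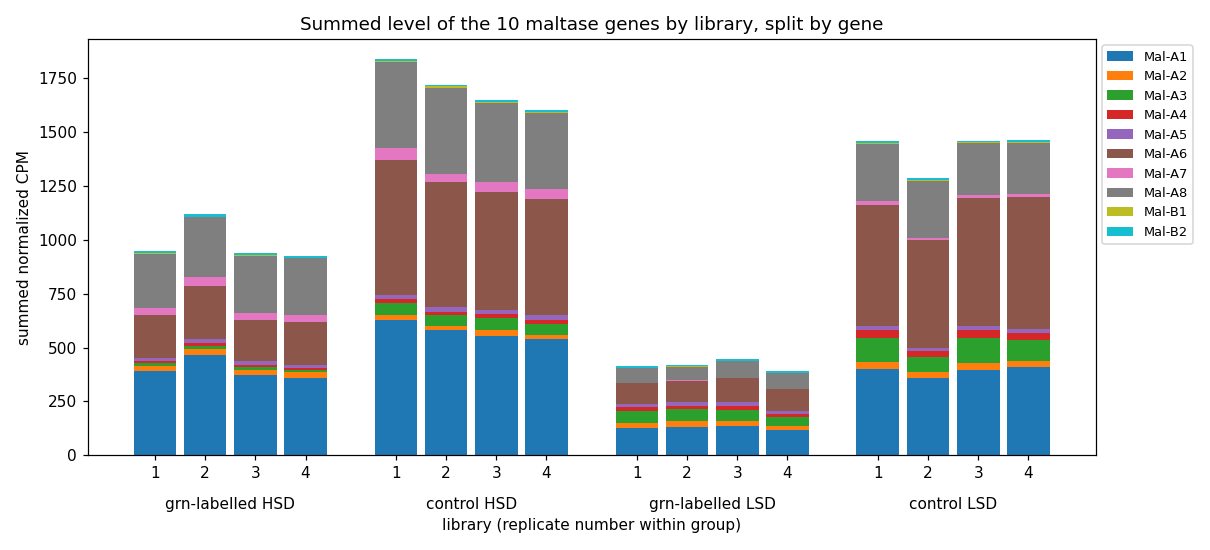
Summed normalized CPM of the 10 maltase genes (y axis) in each of the 16 libraries (x axis, replicate number within group), each bar split by gene. The grn-labelled LSD bars reach 391 to 445 and the grn-labelled HSD bars 927 to 1118, below every control bar (1285 to 1840), and Mal-A1, Mal-A6 and Mal-A8 fill most of each bar.

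In the comparison of grn-labelled with control larvae on HSD, 7 of the 10 maltases were lower and 0 were higher (limma, adjusted p under 0.05 over all genes tested), where 21.2% of all genes tested were called lower and 17.9% higher. On LSD 8 were lower and 0 were higher, where 27.1% of all genes were called lower and 27.1% higher. The median log2 fold change of the 10 was -0.52 on HSD and -1.25 on LSD, beside 0.01 and 0.03 over all genes tested. Libraries of the 2 groups did not overlap for 5 members on HSD (38.7% of all genes) and for 8 members on LSD (47.4% of all genes). These counts depended in part on scaling. With the recovered reads taken as plain CPM, the median of all genes moved up by 0.14 on HSD and 0.19 on LSD, and the calls were 5 lower and 2 higher (Mal-A2 and Mal-B2) on HSD and 7 lower and 1 higher (Mal-B2) on LSD.

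HSD was compared with LSD within each genotype to see how the sugar in the food moved these genes. In grn-labelled larvae 7 maltases were higher on HSD and 2 were lower (18.3% and 23.3% of all genes tested), with a median log2 fold change of 0.66. In control larvae 4 were higher and 3 were lower (19.3% and 22.3% of all genes tested), with a median of 0.22. The medians over all genes tested were -0.02 in grn-labelled and 0.02 in control larvae. Libraries on HSD and LSD did not overlap for 8 members in grn-labelled larvae (47.2% of all genes) and for 7 in control larvae (31.5% of all genes). The maltases thus did not all move in 1 direction with sugar. Mal-A1, Mal-A5, Mal-A7 and Mal-A8 were higher on HSD in both genotypes, and Mal-A3 and Mal-A4 were lower on HSD in both.

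**Figure D2:**
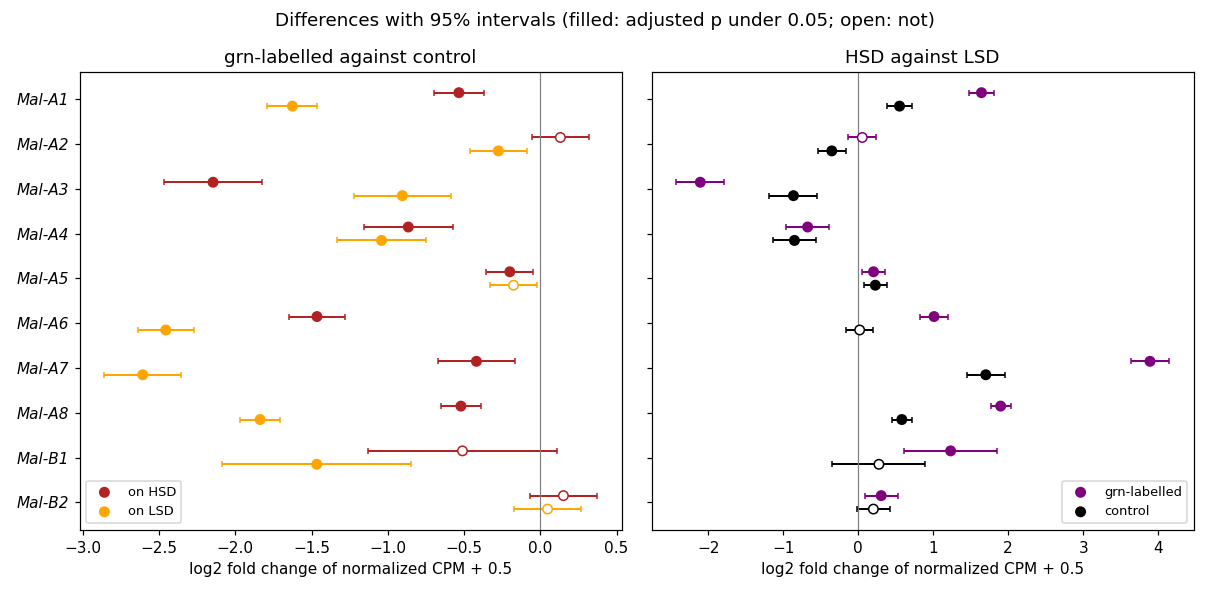
Log2 fold change of each maltase gene with its 95% interval (x axis), for grn-labelled against control larvae on each diet (left) and for HSD against LSD in each genotype (right). Filled points passed an adjusted p of 0.05 in limma and open points did not. The intervals on LSD lie left of those on HSD for Mal-A1, Mal-A2, Mal-A6, Mal-A7 and Mal-A8, and right of that on HSD for Mal-A3. For Mal-A2 the difference between the diets did not pass its own test (adjusted p = 0.072 from limma).

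Mal-A1 (FBgn0002570), Mal-A6 (FBgn0050360) and Mal-A8 (FBgn0033297) gave most of the maltase reads. On HSD Mal-A1 had 392, 467, 372 and 361 normalized CPM in the 4 grn-labelled libraries, against 626, 579.7, 556 and 538 in the 4 control libraries. On LSD it had 125, 131, 134 and 116 in grn-labelled libraries, against 402, 359.6, 397 and 408 in control libraries. All grn-labelled libraries were below all control libraries on each diet. On the authors' scaling, grn-labelled larvae on HSD were at the level of control larvae on LSD (398 ± 47.6 and 392 ± 22.1, SD, n = 4 each). The log2 fold change of grn-labelled against control larvae was -0.53 on HSD (SE 0.08, adjusted p = 8.0e-05 from limma) and -1.63 on LSD (SE 0.08, adjusted p = 8.6e-10). Under other settings with all libraries it ranged from -0.53 to -0.27 on HSD and from -1.63 to -1.41 on LSD, with no call lost. HSD was higher than LSD on the log2 scale by 1.64 in grn-labelled larvae (adjusted p = 5.8e-10) and by 0.55 in control larvae (adjusted p = 6.5e-05).

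Mal-A8 followed nearly the same course at a lower level. On HSD it had 251, 274, 263 and 264 normalized CPM in grn-labelled libraries, against 395, 399, 364 and 354 in control libraries. On LSD the gene had 67.9, 63.3, 77.7 and 72.6 in grn-labelled libraries, against 266, 261, 243 and 239 in control libraries. Again the grn-labelled libraries all lay below the control libraries of the same diet. Between genotypes the log2 fold change was -0.52 on HSD (adjusted p = 1.4e-05 from limma) and -1.84 on LSD (adjusted p = 2.0e-11). Under other settings with all libraries it ranged from -0.52 to -0.30 on HSD and from -1.85 to -1.63 on LSD, with no call lost. HSD stood 3.74 times as high as LSD in grn-labelled larvae and 1.498 times as high in control larvae.

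Mal-A6 differed from these genes in control larvae, where the diet left no difference that passed the test. On HSD it had 197, 249, 191 and 196 normalized CPM in grn-labelled libraries, against 627, 580.5, 547 and 538 in control libraries. In larvae on LSD it had 97.5, 100.1, 110.3 and 102 in grn-labelled libraries, against 563, 498, 591 and 612 in control libraries. Each grn-labelled library was thus far below each control library, and the control libraries on the 2 diets overlapped. The log2 fold change of HSD against LSD was 1.01 in grn-labelled larvae (SE 0.09, adjusted p = 3.8e-07 from limma) and 0.02 in control larvae (95% interval -0.16 to 0.20, adjusted p = 0.88). Grn-labelled larvae were lower than control larvae on HSD (log2 fold change -1.47, adjusted p = 1.6e-08) and on LSD (-2.46, adjusted p = 2.8e-11).

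**Figure D3:**
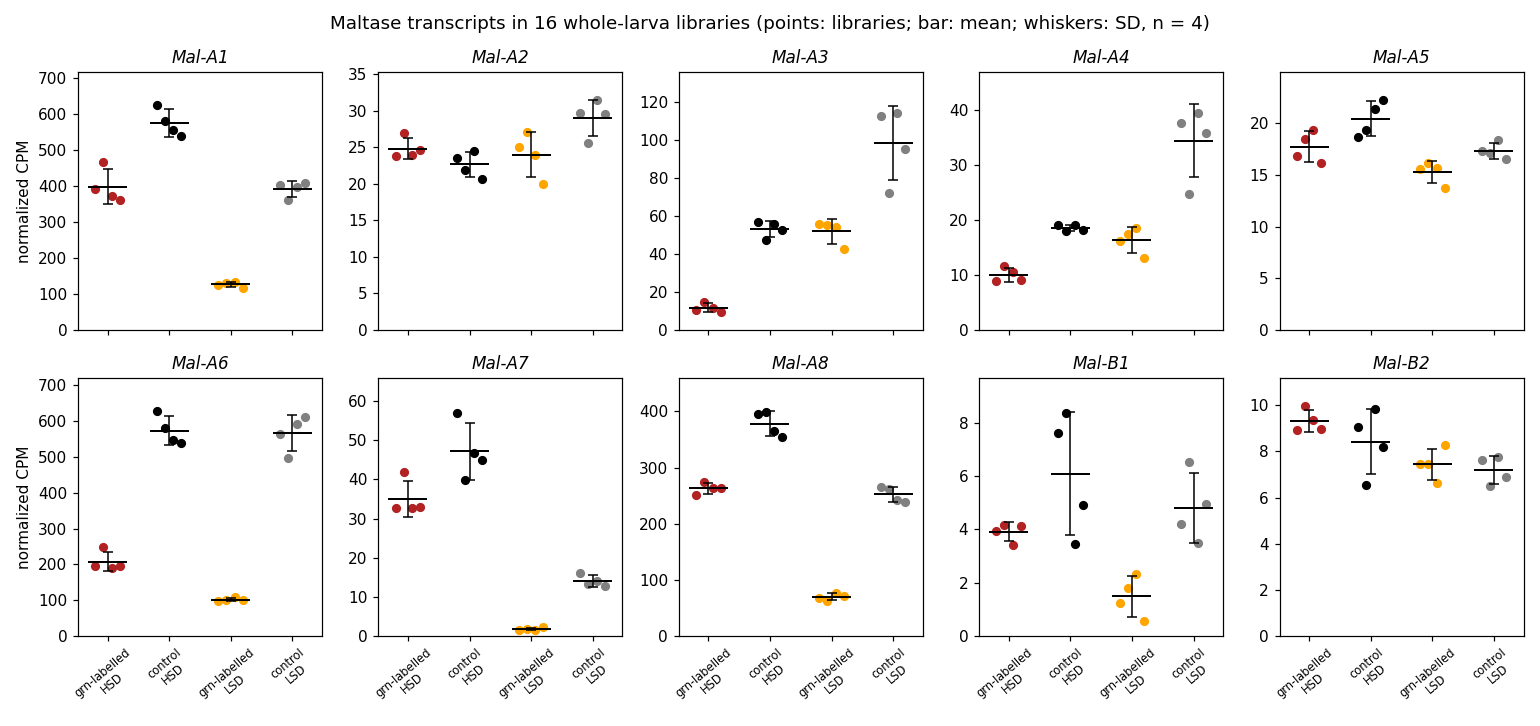
Normalized CPM (y axis, linear from 0, a scale of its own for each gene) of the 10 maltase genes in the 4 libraries of each group (x axis). Points are libraries, bars are means and whiskers are SD (n = 4). Mal-A7 shows the widest spread between groups, 1.90 in grn-labelled LSD against 47.1 in control HSD on average, and Mal-A2, Mal-A5 and Mal-B2 show the narrowest.

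Mal-A7 (FBgn0033296) had the widest range between groups of the 10. On HSD it had 32.6, 41.9, 32.7 and 32.8 normalized CPM in grn-labelled libraries, against 57.0, 39.8, 46.7 and 45.0 in control libraries. On LSD its levels were 1.73, 1.95, 1.63 and 2.27 in grn-labelled libraries, which are 49 to 70 reads per library, against 16.1, 13.3, 14.1 and 12.8 in control libraries. Grn-labelled and control libraries overlapped on HSD through grn-labelled replicate 2 and control replicate 2, and were far apart on LSD. Control larvae on LSD had 7.43 times the level of grn-labelled larvae (log2 fold change -2.61, SE 0.12, adjusted p = 5.7e-10 from limma), and on HSD the log2 fold change was -0.42 (adjusted p = 0.011). The difference on HSD did not pass on plain CPM of the recovered reads (-0.28, adjusted p = 0.051). HSD was 18.5 times as high as LSD in grn-labelled larvae and 3.35 times as high in control larvae.

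Mal-A3 (FBgn0002571) and Mal-A4 (FBgn0033294), which are transcribed away from each other, moved with sugar in the opposite direction. On HSD Mal-A3 had 10.6, 14.9, 11.8 and 9.69 normalized CPM in grn-labelled libraries, against 56.9, 47.4, 55.9 and 52.8 in control libraries. In larvae on LSD the gene had 55.8, 55.1, 54.1 and 42.4 in grn-labelled libraries, against 113, 72.2, 114 and 95.1 in control libraries. Grn-labelled libraries were below control libraries on each diet. On the authors' scaling, grn-labelled larvae on LSD were at the level of control larvae on HSD (51.9 ± 6.33 and 53.2 ± 4.26, SD, n = 4 each). Mal-A3 was the only one of the 10 whose difference between genotypes was called larger on HSD. Its log2 fold change of grn-labelled against control was -2.15 on HSD (SE 0.15, adjusted p = 9.3e-08 from limma) and -0.91 on LSD (SE 0.15, adjusted p = 1.6e-04). HSD was lower than LSD in grn-labelled larvae (log2 fold change -2.10, adjusted p = 6.1e-08) and in control larvae (-0.86, adjusted p = 4.0e-04).

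On HSD Mal-A4 had 8.87, 11.5, 10.4 and 9.13 normalized CPM in grn-labelled libraries, against 19.1, 18.0, 19.0 and 18.1 in control libraries. On LSD it had 16.1, 17.4, 18.6 and 13.03 in grn-labelled libraries, against 37.5, 24.6, 39.4 and 35.8 in control libraries. The grn-labelled libraries were again the lower ones on both diets without overlap. Between genotypes the log2 fold change was -0.87 on HSD (adjusted p = 1.7e-04 from limma) and -1.04 on LSD (adjusted p = 2.0e-05). HSD was below LSD by a log2 fold change of -0.67 in grn-labelled larvae (adjusted p = 0.0011) and -0.85 in control larvae (adjusted p = 2.2e-04). Control LSD replicate 2 was the lowest of its group for both Mal-A3 and Mal-A4, and no call for either gene was lost when any 1 library was left out.

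Mal-A2 (FBgn0002569) and Mal-A5 (FBgn0050359) differed little between groups. On HSD Mal-A2 had 23.8, 26.9, 24.0 and 24.7 normalized CPM in grn-labelled libraries, against 23.6, 21.9, 24.5 and 20.7 in control libraries. On LSD the gene had 25.0, 27.2, 24.0 and 20.0 in grn-labelled libraries, against 29.7, 25.6, 31.5 and 29.6 in control libraries. Grn-labelled and control libraries overlapped on both diets. The log2 fold change between genotypes was 0.13 on HSD (95% interval -0.06 to 0.32, adjusted p = 0.25 from limma) and -0.28 on LSD (adjusted p = 0.016). The call on LSD was lost without grn-labelled LSD replicate 4 (-0.19, adjusted p = 0.055), under quantile normalization (-0.20, 0.057) and on plain CPM of the recovered reads (-0.07, 0.46). On HSD the gene was called higher under quantile normalization (0.22, adjusted p = 0.043) and on plain CPM (0.27, 0.017). HSD was below LSD in control larvae (log2 fold change -0.35, adjusted p = 0.0053), and in grn-labelled larvae the difference was 0.05 (95% interval -0.13 to 0.24, adjusted p = 0.66).

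Mal-A5 had 16.8, 18.5, 19.4 and 16.2 normalized CPM in grn-labelled libraries on HSD, against 18.7, 19.3, 21.4 and 22.3 in control libraries. In larvae on LSD it had 15.6, 16.2, 15.7 and 13.7 in grn-labelled libraries, against 17.3, 17.1, 18.4 and 16.6 in control libraries. The groups overlapped on HSD and not on LSD, and all 4 group means lay between 15.3 and 20.4. The log2 fold change between genotypes was -0.20 on HSD (adjusted p = 0.040 from limma) and -0.18 on LSD (adjusted p = 0.052). That on LSD was 0.02 on plain CPM of the recovered reads. It passed in 9 of 30 alternatives, among them DESeq2 (-0.18, adjusted p = 0.040). The call on HSD was lost on plain CPM (-0.06, adjusted p = 0.48), under quantile normalization (-0.11, 0.19), under median-of-ratios scaling (-0.19, 0.0505) and in a fit of only the 8 libraries (-0.20, 0.079). It was also lost without control HSD replicate 3 (-0.18, adjusted p = 0.096) or 4 (-0.16, 0.12) and without grn-labelled HSD replicate 1 (-0.18, 0.10) or 4 (-0.16, 0.12). On the log2 scale HSD was above LSD by 0.20 in grn-labelled larvae (adjusted p = 0.035) and by 0.23 in control larvae (adjusted p = 0.021). That in control larvae was lost without control HSD replicate 3 (0.20, adjusted p = 0.051) or 4 (0.19, 0.068). That in grn-labelled larvae was lost without LSD replicate 1 (0.21, adjusted p = 0.053), 3 (0.22, 0.0501) or 4 (0.15, 0.11) or HSD replicate 2 (0.18, 0.089) or 3 (0.16, 0.10).

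Mal-B1 (FBgn0032381) and Mal-B2 (FBgn0032382) were the least abundant of the 10 per kilobase in control larvae. On HSD Mal-B1 had 3.95, 4.17, 3.40 and 4.14 normalized CPM in grn-labelled libraries, against 7.63, 8.38, 3.47 and 4.90 in control libraries. On LSD its levels were 1.24, 1.81, 2.33 and 0.58 in grn-labelled libraries, against 4.20, 6.54, 3.48 and 4.97 in control libraries. These values rest on 18 to 216 reads per library, and the genotypes overlapped on HSD and not on LSD. The log2 fold change between genotypes was -0.51 on HSD (95% interval -1.13 to 0.11, adjusted p = 0.18 from limma) and -1.47 on LSD (SE 0.29, adjusted p = 7.1e-04). On the log2 scale HSD was above LSD by 1.23 in grn-labelled larvae (SE 0.29, adjusted p = 0.0034), and in control larvae the difference was 0.28 (95% interval -0.34 to 0.90, adjusted p = 0.48).

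Mal-B2 had 8.94, 9.97, 9.35 and 8.96 normalized CPM in grn-labelled libraries on HSD, against 9.06, 6.56, 9.84 and 8.17 in control libraries. In larvae on LSD the gene had 7.46, 7.43, 6.61 and 8.26 in grn-labelled libraries, against 7.61, 6.49, 7.76 and 6.87 in control libraries. The genotypes overlapped on both diets. Their log2 fold change was 0.15 on HSD (95% interval -0.07 to 0.37, adjusted p = 0.26 from limma) and 0.05 on LSD (95% interval -0.17 to 0.27, adjusted p = 0.72). On plain CPM of the recovered reads both were called higher, by a log2 fold change of 0.29 on HSD (adjusted p = 0.026) and 0.24 on LSD (adjusted p = 0.048). On the log2 scale HSD was above LSD by 0.31 in grn-labelled larvae (adjusted p = 0.027), and in control larvae the difference was 0.20 (adjusted p = 0.13). The call in grn-labelled larvae was lost without LSD replicate 1 (0.31, adjusted p = 0.0505), 2 (0.31, 0.051) or 3 (0.25, 0.084) or HSD replicate 2 (0.27, 0.072) or 3 (0.30, 0.051), and the difference in control larvae passed without control HSD replicate 2 (0.31, adjusted p = 0.012). The neighbours Mal-B1 and Mal-B2, which are 788 bp apart, thus had different calls between genotypes on LSD. Pde1c, in which both lie, had log2 fold changes between genotypes of -0.04 on HSD (adjusted p = 0.75) and -0.22 on LSD (adjusted p = 0.032).

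Wherever the 4 libraries of 1 group did not overlap with the 4 of the other, a two-sided exact permutation test gave p = 0.0286. This is the smallest that 4 against 4 libraries allow, and it follows from the lack of overlap. Called differences with overlap had a permutation p of 0.057 (Mal-A7 between genotypes on HSD, Mal-A2 on LSD) or 0.086 (Mal-A5 on HSD). Mal-A5 between diets in grn-labelled larvae also had 0.057. In whole larvae, fewer cells of a type and less RNA per cell cannot be told apart.

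The difference of the grn effect between the diets was tested for each gene as an interaction (the log2 fold change of grn-labelled against control on HSD minus that on LSD). It was positive, with the smaller difference between genotypes on HSD, for 4 maltases, and negative for 1, where 3.72% and 1.63% of all genes tested passed in these directions. Mal-A7 had the largest value of the 10, 2.19 (SE 0.17, adjusted p = 7.0e-06 from limma). Mal-A8 had 1.32 (SE 0.09, adjusted p = 2.7e-06), Mal-A1 had 1.09 (SE 0.11, adjusted p = 8.4e-05) and Mal-A6 had 0.99 (SE 0.12, adjusted p = 4.2e-04). These are the abundant genes and Mal-A7, whose deficit in grn-labelled larvae was smaller on sugar. Mal-A3 alone had a negative value that passed, -1.24 (SE 0.21, adjusted p = 0.0039).

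The other 5 did not pass. Mal-B1 had 0.96 (SE 0.41, 95% interval 0.08 to 1.83, adjusted p = 0.20 from limma), a value as high as that of Mal-A6 with a wider error. Mal-A2 had 0.41 (adjusted p = 0.072), and passed without control LSD replicate 2 (0.47, adjusted p = 0.046) or control HSD replicate 3 (0.44, adjusted p = 0.044), and with DESeq2 on the recovered reads of all libraries (0.42, adjusted p = 0.013). Mal-A4 had 0.18 (adjusted p = 0.67), Mal-B2 had 0.10 (adjusted p = 0.75) and Mal-A5 had -0.02 (95% interval -0.24 to 0.19, adjusted p = 0.93). The median over the 10 was 0.68, beside -0.02 over all genes tested.

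The make-up of the maltase pool shifted with both genotype and diet. Mal-A1, Mal-A6 and Mal-A8 together held 88.5% of the summed normalized CPM in grn-labelled larvae on HSD and 89.6% in control larvae on HSD, and 71.7% in grn-labelled larvae on LSD and 85.5% in control larvae on LSD. Mal-A6 held 21.2% of the sum in grn-labelled and 33.7% in control libraries on HSD, and 24.6% in grn-labelled and 39.9% in control libraries on LSD. Its share was smaller in grn-labelled larvae on each diet. The share of Mal-A1 was 40.5% in grn-labelled and 33.8% in control libraries on HSD, and 30.3% in grn-labelled and 27.7% in control libraries on LSD. Mal-A3 held 1.19% in grn-labelled and 3.13% in control libraries on HSD, against 12.4% in grn-labelled and 6.92% in control libraries on LSD. Shares are descriptions of means over 4 libraries, are not corrected for exon length and were not tested.

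The maltases were put in order of level per kilobase of exon. In grn-labelled larvae on HSD, Mal-A1 was first (218 ± 26.1 normalized CPM per kb), followed by Mal-A8 (145 ± 5.15) and Mal-A6 (90.9 ± 11.96). In control larvae on HSD the order was Mal-A1 (315 ± 20.8), Mal-A6 (250.2 ± 17.6) and Mal-A8 (208 ± 12.3). Mal-A8 thus stood above Mal-A6 in grn-labelled and below it in control larvae on HSD, without overlap between neighbours in either order.

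On LSD, Mal-A1 was first in grn-labelled larvae (69.4 ± 4.30 per kb), and Mal-A6 (44.8 ± 2.41) and Mal-A8 (38.8 ± 3.41) came next and overlapped. In control larvae on LSD Mal-A6 (247 ± 21.7) and Mal-A1 (215 ± 12.1) overlapped and Mal-A8 (139 ± 7.28) came after them. Mal-A7 took the lowest place of the 10 in grn-labelled larvae on LSD (0.698 ± 0.104 per kb), overlapping with Mal-B1, and place 4 in grn-labelled larvae on HSD (12.9 ± 1.69), overlapping with Mal-A2. In control larvae it took place 5 on HSD (17.3 ± 2.65) and place 8 on LSD (5.18 ± 0.541). Mal-B1 was last in the other 3 groups, at 2.16 ± 0.196 in grn-labelled HSD, 3.36 ± 1.27 in control HSD and 2.64 ± 0.723 in control LSD libraries, overlapping with Mal-B2 in both control groups.

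Ratios within a library compare neighbouring genes without the scaling between libraries. Mal-A3 over Mal-A4 was 1.17 ± 0.0979 in grn-labelled and 2.87 ± 0.158 in control libraries on HSD, and 3.20 ± 0.227 in grn-labelled and 2.87 ± 0.152 in control libraries on LSD (SD, n = 4 each). The ratio was thus near the same level in 3 groups and lower in each grn-labelled HSD library (at most 1.29) than in any other library (at least 2.63). Mal-A7 over Mal-A8 was 0.133 ± 0.0136 in grn-labelled and 0.125 ± 0.0184 in control libraries on HSD, and 0.0271 ± 0.00487 in grn-labelled and 0.0558 ± 0.00434 in control libraries on LSD. The ratio of this pair, 290 bp apart, was thus higher on HSD than on LSD in both genotypes. On LSD it was lower in grn-labelled than in control libraries, where the grn-labelled value rests on 49 to 70 reads of Mal-A7 per library. Mal-A5 over its neighbour Mal-A6, 65 bp away, was 0.0860 ± 0.0114 in grn-labelled and 0.0359 ± 0.00533 in control libraries on HSD, and 0.150 ± 0.0134 in grn-labelled and 0.0308 ± 0.00296 in control libraries on LSD. These pairs were chosen after their values were seen, and the ratios were not tested.

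**Figure D4:**
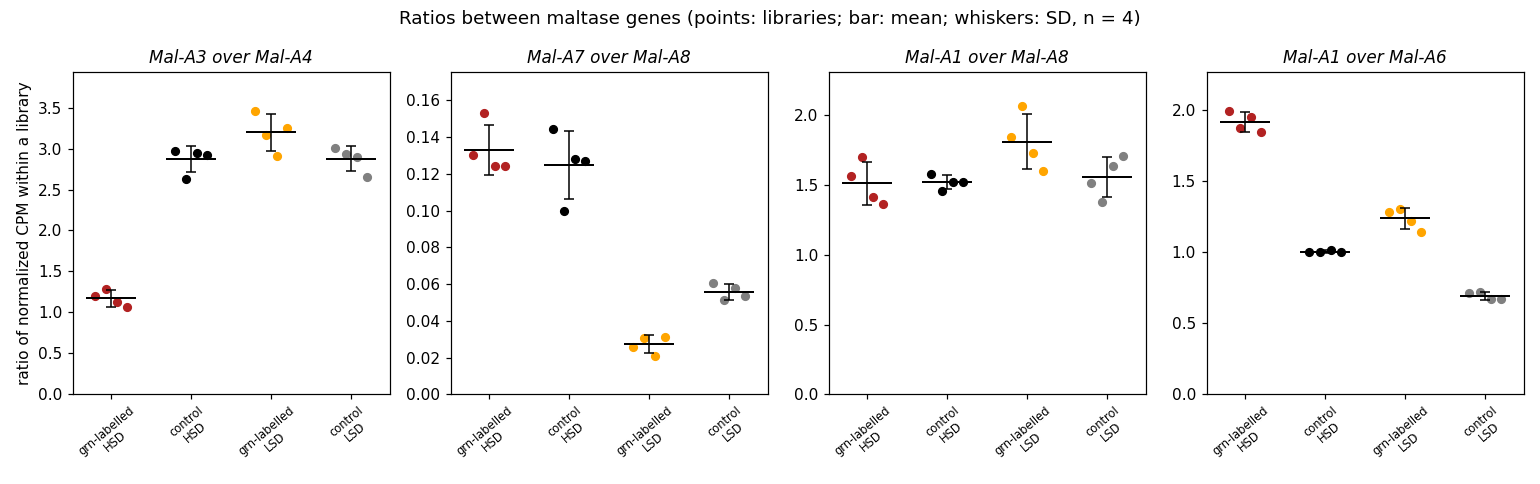
Ratio of the normalized CPM of paired maltase genes within each library (y axis, linear from 0) by group (x axis). Points are libraries, bars are means and whiskers are SD (n = 4). Mal-A3 over Mal-A4 is 1.06 to 1.29 in grn-labelled HSD libraries and at least 2.63 in the others, and Mal-A1 over Mal-A8 has group means from 1.51 to 1.81.

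Mal-A1 and Mal-A8, the first and the last gene of the cluster, were the most alike. Likeness was measured as the root mean square difference between the 4 group means of 2 genes on the log2 scale, after each gene was centred on its own mean. Among the 9949 other genes tested, Mal-A8 was the nearest to Mal-A1, at 0.10, and Mal-A1 the nearest to Mal-A8. Mal-A1 over Mal-A8 was 1.51 ± 0.152 in grn-labelled and 1.52 ± 0.0525 in control libraries on HSD, and 1.81 ± 0.196 in grn-labelled and 1.56 ± 0.145 in control libraries on LSD. The next genes were yip7 (0.13) and PGRP-SC1a (0.13) for Mal-A1, and CG12057 (0.14) and Cyp4d8 (0.19) for Mal-A8. For Mal-A6 the nearest were CG11581 (0.11), CG11658 (0.13) and CG11345 (0.14), and for Mal-A7 they were CG32444 (0.25), CG14205 (0.44) and CG12766 (0.49).

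The nearest genes to Mal-A3 were Gba1a (0.30), a glucocerebrosidase gene, Amyrel (0.31), an amylase-related gene, and CG11162 (0.31). For Mal-A4 they were CG12560 (0.06), CG30431 (0.08) and CG17636 (0.11), and for Mal-B1 they were CG4377 (0.08), CG17633 (0.09) and CR44192 (0.09). Mal-A3 and Mal-A4 were thus not the nearest genes to each other, and Mal-A4 ranked 36 among the genes nearest to Mal-A3. The group means of Mal-A2, Mal-A5 and Mal-B2 spanned less than 1 on the log2 scale (0.35, 0.40 and 0.35), and no nearest genes were taken for them. All of this rests on 4 group means per gene.

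Most of the other glycosidases listed were lower on HSD than on LSD in both genotypes. The list held 15 genes, among them amylases, lysosomal alpha-mannosidases, beta-galactosidases and trehalase, and all 15 were tested. On HSD against LSD, 1 of the 15 was higher and 11 were lower in grn-labelled larvae (median log2 fold change -1.53), beside 18.3% and 23.3% of all genes tested. In control larvae 0 were higher and 12 were lower (median -1.55), beside 19.3% and 22.3% of all genes. The 3 with the lowest adjusted p in both genotypes were the alpha-mannosidase genes LManIII, LManIV and LManV, with log2 fold changes of -3.43, -3.05 and -2.59 in grn-labelled larvae and -3.27, -2.74 and -2.41 in control larvae. Mal-A3 and Mal-A4 were lower on HSD as these genes were. In grn-labelled against control larvae 11 of the 15 were lower on HSD (median -0.84, 21.2% of all genes lower) and 13 on LSD (median -0.97, 27.1% of all genes lower), and 0 were higher on either diet. How this list and the maltases differ was not tested. The interaction was positive for 4 of the 15 and negative for 1 (median -0.07, beside 3.72% and 1.63% of all genes), with tobi, an alpha-glucosidase-like gene, at 1.36 (adjusted p = 0.017 from limma).

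Midgut markers moved in the same direction as the maltases between genotypes. Of 15 markers, 10 were lower in grn-labelled larvae on HSD (median log2 fold change -0.40, 21.2% of all genes lower) and 14 on LSD (median -0.78, 27.1% of all genes lower), and 0 were higher. Their summed level was 4039 to 4376 normalized CPM in grn-labelled and 7027 to 7752 in control libraries on HSD, and 2936 to 3164 in grn-labelled and 6882 to 7600.3 in control libraries on LSD. The largest differences were in the serine protease genes Jon74E (-2.84 on HSD and -3.83 on LSD) and Jon25Bi (-2.30 on HSD and -2.98 on LSD). GATAe, which encodes a GATA factor of the midgut, was at -0.40 on HSD and -0.52 on LSD, and nub was not called on either diet (both named after their values were seen). On HSD against LSD 12 of the 15 were higher and 0 lower in grn-labelled larvae (18.3% and 23.3% of all genes), and 5 were higher and 1 lower in control larvae (19.3% and 22.3% of all genes). The interaction was positive for 7 and negative for 0 (3.72% and 1.63% of all genes). No midgut marker was at 0 in any group. The part of these markers in the maltase results was not tested.

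Markers of other tissues were counted in the same way, beside 17.9% of all genes called higher and 21.2% lower between genotypes on HSD, and 27.1% called in each direction on LSD. On LSD 6 of 7 muscle markers were lower in grn-labelled larvae (median -0.22) and 7 of 7 neuron markers were higher (median 0.39), and on HSD 0 of 7 muscle markers were called and 3 of 7 neuron markers were higher. Of 5 Malpighian tubule markers 1 was higher on each diet and 0 were lower. Of 4 measured fat body markers 1 was higher and 1 lower on HSD, and 0 were higher and 1 lower on LSD.

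Library differences within a group touched several members at once. Grn-labelled HSD replicate 2 was the highest of its group for 9 of the 10 maltases, all but Mal-A5. Control LSD replicate 2 was the lowest of its group for 6, and grn-labelled LSD replicate 4 was the lowest of its group for 6. Without grn-labelled HSD replicate 2 the calls of Mal-A5 and Mal-B2 for HSD against LSD in grn-labelled larvae were lost, and no other member lost a call in any comparison. All libraries carry the same run name in the labels, and no batch within it is given.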

How the data were processed

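The 16 RNA-seq libraries of whole larvae comprised 4 for each combination of genotype and diet, grouped by sample title. Per the labels and methods, the authors used Trimmomatic for trimming, TopHat2 (2.1.0) for alignment to release 6 of the FlyBase genome and HTSeq (2.7.6) for strand-specific read counting. Genes with low counts were removed by the authors, and the deposited signal is normalized CPM. Dividing the deposited signal by the value of 1 read in its library gave whole reads (within 0.01) for 100% of values, 24038848 to 32644817 reads per library. The table also holds fold changes, test statistics and p-values of the authors' own comparisons, which were not used.

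Genes above 1 normalized CPM in at least 3 of 4 libraries of a group were kept (9950 of 9982). Log2(normalized CPM + 0.5) was fitted with limma 3.58.1 in R 4.3.3, using 1 mean per group, trended moderated variances and two-sided tests. P-values were adjusted over the 9950 genes (Benjamini-Hochberg), and an adjusted p under 0.05 was called. A fold change is on this scale, which understates changes of low genes. Adjusted p-values are those of limma except where edgeR or DESeq2 is named. The script was tested on simulated data.

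The members and gene lists were chosen with earlier results of these data known. All 10 maltases are named in every comparison. Genes of like pattern were the 3 nearest to each member whose group means span at least 1 (log2), and each other list gave at most 3 named members per comparison, those of lowest adjusted p. Alternatives were pseudocounts of 0.1 and 1, no filter or a filter at 5, no trend, other scalings, a replicate block, a fit of only the 8 libraries compared, edgeR 4.0.16, DESeq2 1.42.0 and limma voom on recovered reads, an adjusted p under 0.01, and each library left out. Coordinates are from an Ensembl annotation of release 6. Sequences of the maltase genes were not used here.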

Additional observations from a re-analysis of the deposited data

Results flagged for a closer look

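The difference of the grn effect between the diets passed the test of the difference itself for 5 of the 10 maltases (limma, adjusted over all genes tested). Over all genes tested, 3.72% passed with a positive value and 1.63% with a negative value. On the log2 scale, HSD minus LSD, the difference was 2.19 for Mal-A7, 1.32 for Mal-A8, 1.09 for Mal-A1, 0.99 for Mal-A6 and -1.24 for Mal-A3. Each of these values kept its direction and its call when any 1 library was left out.

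Of 40 sets of 4 libraries (10 genes in 4 groups), 3 held a library far from the others, where chance gives about 1 in 20. Mal-A6 had 249 normalized CPM in grn-labelled HSD replicate 2, against 197 in the nearest library of that group. Mal-A7 had 41.9 in the same library, against 32.8 in the nearest. Mal-A3 had 42.4 in grn-labelled LSD replicate 4, against 54.1 in the nearest.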

How the results depend on the processing

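The counts of maltases called stayed within 1.5 times of the reported ones under all alternatives run. With 1 library left out they ranged from 6 to 7 for grn-labelled against control on HSD, 7 to 9 on LSD, 7 to 9 for HSD against LSD in grn-labelled larvae, 6 to 8 in control larvae and 5 to 6 for the interaction. Of 1485 values of single members under an alternative, 1437 kept their side of the threshold, 30 no longer passed and 18 newly passed. All 48 of the changes were in Mal-A2, Mal-A5, Mal-A7 and Mal-B2. While 0 called values changed sign, some values near 0 that were not called did, such as Mal-A5 between genotypes on LSD (-0.18, at highest 0.02). Under quantile normalization the median of all genes moved by 0.12 on HSD and 0.10 on LSD between genotypes, and the calls were 6 lower and 2 higher on HSD and 7 lower on LSD. Same-numbered libraries did not deviate together in every pair (correlations from -0.51 to 0.80). Libraries of different numbers were not compared in this way, so whether the numbers pair the samples was not decided. With a replicate block, 7 maltases were called between genotypes on HSD and 9 on LSD, 9 and 7 between diets in grn-labelled and control larvae, and 5 for the interaction. Depth limits Mal-B1 and, in grn-labelled larvae on LSD, Mal-A7, which had as few as 18 and 49 reads in a library.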

Other observations

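Genes of sugar uptake and sugar sensing were called as follows. On HSD against LSD, 18.3% of all genes tested were higher and 23.3% lower in grn-labelled larvae, and 19.3% higher and 22.3% lower in control larvae. Between genotypes 17.9% were higher and 21.2% lower on HSD, and 27.1% were called in each direction on LSD. Of 12 measured genes of sugar uptake and first intracellular steps, 9 stood higher and 1 lower on HSD in grn-labelled larvae (median log2 fold change against LSD 0.56), and 8 stood higher and 2 lower in control larvae (median 0.35). Galk, which encodes galactokinase, was higher on HSD by 1.24 on the log2 scale in grn-labelled and 1.03 in control larvae, and Pgi, which encodes phosphoglucose isomerase, by 1.01 in grn-labelled and 0.97 in control larvae. Between genotypes 1 of the 12 was higher and 4 were lower on HSD, and 2 were higher and 8 lower on LSD, among them Galt (-0.61 on HSD and -0.78 on LSD).

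Of 9 genes listed as sugar-sensing regulators, 5 were higher and 2 lower on HSD in grn-labelled larvae, and 5 were higher and 1 lower in control larvae. The shares called lower were thus near or below those of all genes. The list includes the alpha-glucosidase-like gene tobi, which was the 1 called lower in control larvae (log2 fold change -2.78). In grn-labelled larvae tobi was also lower on HSD (-1.42). The transcription factor gene sug rose on HSD by 1.16 on the log2 scale in grn-labelled and 1.17 in control larvae, and daw, which encodes the Activin-like ligand Dawdle, by 0.71 in grn-labelled and 0.53 in control larvae. Between genotypes 1 of the 9 was lower on HSD (Ilp6, -0.46), a smaller share than that of all genes, and 4 were lower on LSD, including cbt (-0.47) and Smox (-0.24). The interaction passed for 1 of the 9 (3.72% of all genes higher), tobi, which is also in the list of glycosidases. How these genes relate to the maltases was not tested.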
